A study of Mus musculus domesticus with 12 samples.

Results

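The nuclear genome encodes most subunits of the 5 enzyme complexes of oxidative phosphorylation, and their mRNAs were followed here in mouse fetal liver erythroid cells. The members were the protein-coding genes of GENCODE release M21 (build GRCm38) whose symbols begin with Nduf followed by a, b, c, s or v and a number (complex I), are Sdha to Sdhd (complex II), begin with Uqcr or are Cyc1 (complex III), begin with Cox4 to Cox8 (complex IV), or begin with Atp5 (complex V). This rule used names and no measured values. It found 86 of the 55385 gene identifiers in the tables: 37 for complex I, 4 for complex II, 9 for complex III, 18 for complex IV and 18 for complex V. They carry 85 distinct symbols, since Atp5o stands under a pair of identifiers, of which ENSMUSG00000116933.1 never exceeded 0.39 TPM (a relative transcript level that allows for transcript length).

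The series addressed what Dis3 and Exosc10, the catalytic subunits of the RNA-degrading exosome, contribute to the RNA content of erythroid precursors. Livers of C57BL/6J embryos (labelled Mus musculus domesticus) at stage E14.5 were dissociated, depleted of lineage-positive cells and infected with a retrovirus that carried 1 short hairpin RNA (shRNA), then cultured for 2 days in erythroid expansion medium. GFP-positive, Ter119-negative cells with intermediate or positive CD71 were sorted, which are erythroid precursors and proerythroblasts. The 3 groups of 4 libraries differed in the shRNA, against firefly luciferase (shLuc, the control), Dis3 (shDis3) or Exosc10 (shExosc10). All groups share the infection, the culture and the sort, and the labels name 1 target for each group and not the hairpin used.

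Complexes I to IV form the respiratory chain of the inner mitochondrial membrane: complexes I and II take electrons from NADH and succinate, complex III passes them to cytochrome c, and complex IV hands them to oxygen. Complexes I, III and IV pump protons, and complex V, the ATP synthase, uses the gradient to make ATP. Mitochondrial DNA encodes a few central subunits of complexes I, III, IV and V, so each of these is built from products of both genomes, while complex II is wholly nuclear. Erythroid precursors carry active mitochondria, where heme synthesis begins and ends, and red cells later lose them.

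Several members have paralogs, close copies that take the same place in a complex and differ in where or when they are used. Ndufa4 and Ndufa4l2 are such a pair (Ndufa4 was named as a complex I subunit and is now placed in complex IV, and Ndufa4l2 is known as a hypoxia-induced gene), as are the widely used Cox7a2 and the muscle form Cox7a1. Their coding sequences are shown because the pair members behaved differently in these libraries, and because stretches shared exactly by both are where reads could be assigned to either. Capitals mark runs of at least 12 bases that both members of a pair share at the aligned place, in the GENCODE M21 transcripts on GRCm38, from start to stop codon. Ndufa4 lies on chromosome 6 (minus strand, 11900292 to 11907497), Ndufa4l2 on chromosome 10 (plus strand, 127514967 to 127517154), Cox7a2 on chromosome 9 (minus strand, 79755361 to 79759878) and Cox7a1 on chromosome 7 (plus strand, 30184144 to 30186078).
Ndufa4: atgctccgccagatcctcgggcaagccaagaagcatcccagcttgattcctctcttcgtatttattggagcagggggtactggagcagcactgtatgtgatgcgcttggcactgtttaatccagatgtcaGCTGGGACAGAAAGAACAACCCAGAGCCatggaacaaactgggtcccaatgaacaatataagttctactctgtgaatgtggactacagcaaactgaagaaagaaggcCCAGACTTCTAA
Ndufa4l2: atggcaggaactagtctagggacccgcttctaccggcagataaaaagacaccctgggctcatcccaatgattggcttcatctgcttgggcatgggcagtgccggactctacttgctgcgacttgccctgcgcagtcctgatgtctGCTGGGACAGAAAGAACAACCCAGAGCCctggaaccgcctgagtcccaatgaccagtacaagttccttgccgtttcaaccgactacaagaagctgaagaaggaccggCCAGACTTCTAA
Cox7a2: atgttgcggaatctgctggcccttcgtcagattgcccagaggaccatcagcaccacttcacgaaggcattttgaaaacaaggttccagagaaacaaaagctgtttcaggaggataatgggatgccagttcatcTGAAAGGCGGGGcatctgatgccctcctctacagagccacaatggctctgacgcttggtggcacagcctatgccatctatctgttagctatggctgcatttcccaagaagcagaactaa
Cox7a1: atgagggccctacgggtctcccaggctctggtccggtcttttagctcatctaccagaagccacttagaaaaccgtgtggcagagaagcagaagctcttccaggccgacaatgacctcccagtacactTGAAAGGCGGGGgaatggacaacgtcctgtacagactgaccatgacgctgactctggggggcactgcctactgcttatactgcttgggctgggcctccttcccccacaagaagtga
Over the 245 aligned bases of Ndufa4 and Ndufa4l2, 68.6% were identical, with a longest shared run of 28 bases. Cox7a2 and Cox7a1 were 62.6% identical over 243 aligned bases, and their longest shared run was 12 bases. None of these 4 genes had a count that was not whole in any library, so no reads of theirs were recorded as split with another gene.

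Atp5g1, Atp5g2 and Atp5g3 encode the same mature c subunit, the protein that forms the rotating ring of the ATP synthase, behind different import sequences. Bases 184 to 411 of the Atp5g1, 214 to 441 of the Atp5g2 and 199 to 426 of the Atp5g3 coding sequence, which end in the stop codon, are shown because 3 genes feed 1 protein here. Capitals mark runs of at least 12 bases that Atp5g1 and Atp5g2 share at the aligned place, and Atp5g3 shares no run of that length with either. Atp5g1 lies on chromosome 11 (minus strand, 96068852 to 96075670), Atp5g2 on chromosome 15 (minus strand, 102662864 to 102672352) and Atp5g3 on chromosome 2 (minus strand, 73908447 to 73911326).
Atp5g1: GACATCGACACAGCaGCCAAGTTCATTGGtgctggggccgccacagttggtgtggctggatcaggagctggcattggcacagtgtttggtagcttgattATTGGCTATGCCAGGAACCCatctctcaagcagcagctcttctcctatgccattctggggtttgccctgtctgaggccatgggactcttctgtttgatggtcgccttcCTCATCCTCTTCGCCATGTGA
Atp5g2: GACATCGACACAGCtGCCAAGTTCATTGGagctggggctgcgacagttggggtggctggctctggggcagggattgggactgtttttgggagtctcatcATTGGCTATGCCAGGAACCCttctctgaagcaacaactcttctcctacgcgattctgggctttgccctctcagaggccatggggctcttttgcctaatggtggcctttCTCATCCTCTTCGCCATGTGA
Atp5g3: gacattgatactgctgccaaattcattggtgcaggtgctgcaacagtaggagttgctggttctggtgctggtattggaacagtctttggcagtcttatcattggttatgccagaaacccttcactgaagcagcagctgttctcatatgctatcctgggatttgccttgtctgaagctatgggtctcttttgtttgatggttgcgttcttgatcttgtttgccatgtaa
Over the whole coding sequences, Atp5g1 and Atp5g2 were 74.8% identical, Atp5g1 and Atp5g3 70.7%, and Atp5g2 and Atp5g3 71.1%.

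Library totals ranged from 14936200 to 32397204 counts. Erythroid marker genes (Gata1, Klf1, Kit, Tfrc, Epor and 5 others) were all detected and summed to 1166.5 to 3065.3 CPM (normalised read counts scaled to library size). Libraries did not group by shRNA alone. Over the tested genes that are not members, shLuc replicate 1 stood alone, shLuc replicates 2 and 3 fell together with shDis3 replicate 2 and shExosc10 replicates 2 to 4, and shLuc replicate 4 fell together with shDis3 replicates 1, 3 and 4 and shExosc10 replicate 1. The targeted genes had log2 fold changes against shLuc of -1.78 for Dis3 in shDis3, which missed the threshold of 0.05 (edgeR adjusted p = 0.0581), and of -1.89 for Exosc10 in shExosc10, which passed it (edgeR adjusted p = 0.00502). The p-values measure the spread between these libraries, since the labels do not say whether replicates came from separate cultures or animals.

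The subunit mRNAs were abundant and short. Of the 86 members, 81 passed the filter on low counts and were tested among 17650 genes, and 77 of those had a mean above 10 TPM over the 12 libraries, 50 of them above 100 TPM. The median of the members' mean levels was 135 TPM, against 6.45 TPM over the 13931 tested protein-coding genes. The median effective length (the number of places at which a fragment can start) was 489.3 bases over the members, from 132.6 to 2207.9 bases, against 2186.9 bases over the protein-coding genes. The members' summed level was lowest in shLuc replicate 1 with 12721 TPM and highest in shLuc replicate 2 with 18360 TPM. As CPM (normalised counts, not divided by length) the sum was lowest in shLuc replicate 4 with 7416 and highest in shDis3 replicate 4 with 12221, so the order of the libraries turned with the scale. The counts of 15 identifiers (Ndufa12, Ndufb4, Ndufb9, Ndufs3, Ndufs5, Uqcrb, Cox5b, Cox7a2l, Atp5f1, Atp5g1, Atp5g2, Atp5h, Atp5l and both of Atp5o) were not whole in 1 or more libraries, so they rest in part on how shared reads were divided and are uncertain. The members made up 1.272% to 1.836% of all TPM and 0.785% to 1.135% of all counts.

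**Figure D1:**
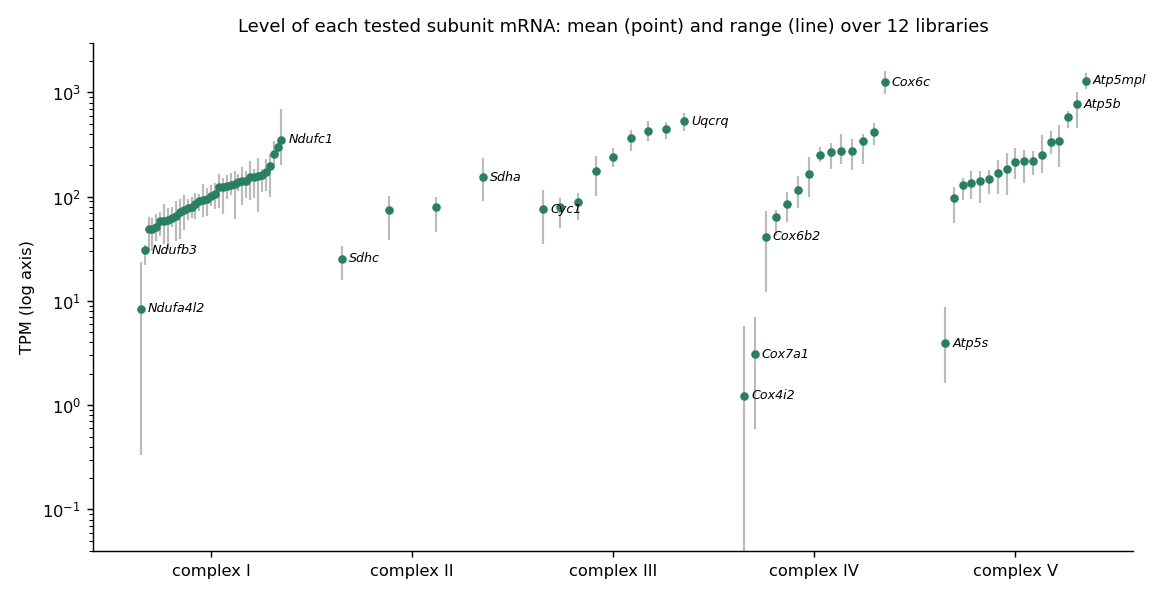
Level of each of the 81 tested subunit mRNAs by complex, in TPM on a log axis, with the mean over 12 libraries as a point and the range from lowest to highest library as a line. The line of Cox4i2, which was listed at 0 in some libraries, is drawn to the bottom of the axis. Most subunits lie above 10 TPM, and Ndufa4l2, Cox4i2, Cox7a1 and Atp5s lie below.

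The 5 members left out of the test were at or near 0. Cox8b and Cox8c, the muscle and testis forms of subunit 8, were listed at 0 in all 12 libraries, Cox6a2, the muscle form of subunit 6a, had 18 counts in all, and Cox7b2, a testis form, had 9. The second Atp5o identifier was the other. The ubiquitous partner of each isoform was high: Cox8a had a mean of 415 TPM, Cox6a1 of 275 TPM and Cox7b of 250 TPM. Of 5 skeletal and heart muscle markers, 2 passed the filter, and these summed to between 0.3 and 2.8 CPM in the 12 libraries.

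Complex I, which oxidises NADH, took 27.1% of the members' TPM on average, spread over 37 genes with a median level of 102 TPM. The 7 core subunits that the nucleus encodes hold the flavin and the iron-sulfur clusters or bind the quinone, and the lowest of them was Ndufs3 with a mean of 48.9 TPM. Ndufs1, which carries several iron-sulfur clusters, had means of 54.1 ± 13.8 TPM in the shLuc group, 58.7 ± 7.83 in the shDis3 group and 61.5 ± 10.8 in the shExosc10 group (SD, n = 4). Ndufv1, which binds the flavin and NADH, had 70.3 ± 15.7, 82.0 ± 19.5 and 71.1 ± 11.8 TPM (SD, n = 4). The most abundant mRNAs of the complex encode supernumerary subunits, which surround the core: Ndufc1 with a mean of 352 TPM, Ndufa6 with 302 TPM and Ndufc2 with 256 TPM. Ndufb3 was the lowest after Ndufa4l2, with 30.5 TPM.

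Complex II, the succinate dehydrogenase that is also an enzyme of the citric acid cycle, took 2.09% of the members' TPM. Sdha, the flavoprotein, had a mean of 154 TPM, Sdhb, the iron-sulfur subunit, 80.2 TPM, and the membrane anchors Sdhd and Sdhc 74.1 and 25.4 TPM. The summed level of the 4 genes was 192, 338, 261 and 465 TPM in shLuc replicates 1 to 4. It was 424, 286, 436 and 393 TPM in shDis3 and 365, 257, 298 and 287 TPM in shExosc10. The groups overlapped, and on this scale the control group held both the lowest and the highest library. As CPM the 4 genes summed to 440 to 466 in the controls, a narrow range, against 412 to 634 in shDis3 and 395 to 549 in shExosc10.

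Complex III took 15.3% of the members' TPM. The subunits that carry electrons were the less abundant ones, with means of 76.2 TPM for Cyc1 (cytochrome c1) and 88.1 TPM for Uqcrfs1 (the Rieske iron-sulfur protein), beside Uqcrc2, a large core subunit without a redox center, with 79.1 TPM. The small subunits Uqcrq, Uqcr11 and Uqcrb had 528, 446 and 429 TPM. Levels per library spanned 34.8 to 115 TPM for Cyc1 and 430 to 628 TPM for Uqcrq, so the ranges of these 2 genes did not meet.

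Complex IV, cytochrome c oxidase, took 22.5% of the members' TPM, of which the small subunit Cox6c, with a mean of 1260 TPM and a range of 966 to 1590 TPM, was the largest single part. Cox8a followed with 415 TPM and Cox4i1, the widely used form of the largest nuclear subunit, with 343 TPM. Cox5a and Cox5b, a pair of subunits found in all tissues, had means of 84.3 and 271 TPM. Cox7a2l, a relative of Cox7a that takes part in joining complexes III and IV, had 63.6 TPM.

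Complex V took the largest share, 33%. Its leading mRNA was Atp5mpl, a small membrane subunit, with a mean of 1300 TPM and a range of 1080 to 1520 TPM, close to Cox6c. In the catalytic head, Atp5b, which encodes the catalytic beta subunit, had 767 TPM and Atp5a1, the alpha subunit, 344 TPM. Atp5h, of the peripheral stalk, had 587 TPM, and Atp5d, the delta subunit of the central stalk, 184 TPM. Of the 3 c-subunit genes printed above, Atp5g3 had a mean of 168 TPM, Atp5g1 142 TPM and Atp5g2 98.0 TPM. These neighbours overlapped in their ranges, which were 105 to 226 TPM, 86.9 to 175 TPM and 56.2 to 123 TPM. Atp5s, a coupling factor that is not a stable subunit, was the lowest with 3.94 TPM.

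**Figure D2:**
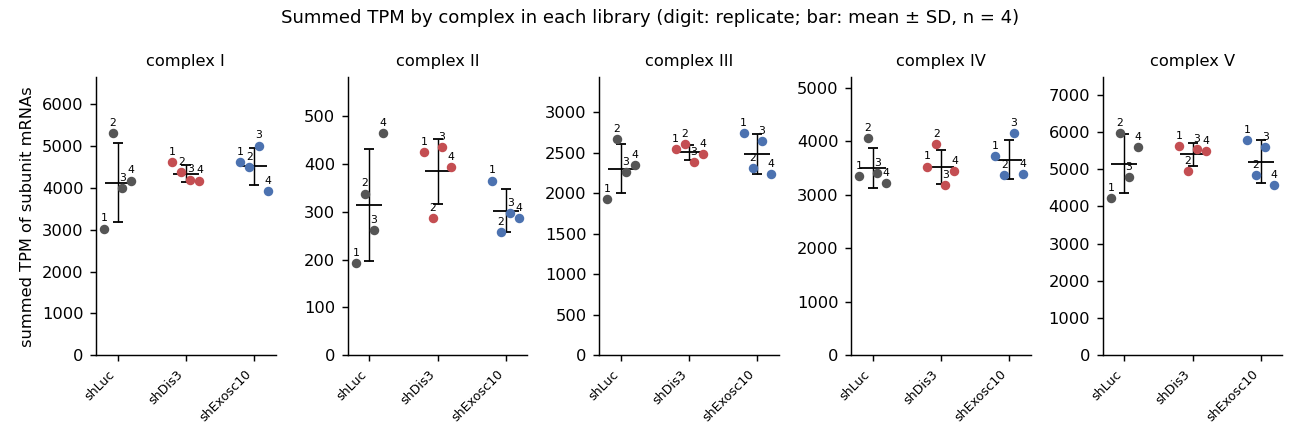
Summed TPM of the members of each complex in each library, by group, with the replicate number over each point and the mean ± SD of 4 libraries as a bar; each panel has its own axis from 0. The groups overlap in every complex, and shLuc replicate 1 is the lowest library for complexes I, II, III and V.

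Summed over a complex, the 3 groups overlapped throughout. Complex I summed to 4127 ± 940 TPM in the controls, 4342 ± 206 with shDis3 and 4516 ± 446 with shExosc10 (SD, n = 4). Complex III summed to 2302 ± 302, 2508 ± 95 and 2487 ± 251 TPM, and complex IV to 3510 ± 374, 3525 ± 318 and 3659 ± 371 TPM (SD, n = 4). Complex V summed to 5144 ± 794, 5400 ± 300 and 5200 ± 580 TPM (SD, n = 4). Complex II, the smallest, summed to 314 ± 117, 385 ± 68 and 302 ± 45 TPM (SD, n = 4). On the TPM scale the control group had the largest SD for each of the 5 complexes. As CPM this was so for complexes I, III and IV, while the controls had the smallest SD for complex II (451 ± 11 CPM, against 490 ± 100 with shDis3 and 443 ± 72 with shExosc10, SD, n = 4) and for complex V (3780 ± 515, 3697 ± 770 and 3801 ± 669 CPM, SD, n = 4). In bulk samples, fewer cells of a type and less RNA per cell cannot be told apart.

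In shDis3 against shLuc, no member passed the test. With edgeR's quasi-likelihood test on all 12 libraries, 0 of 81 members had an adjusted p under 0.05, and 0.0% of the 17650 tested genes were called. DESeq2 called 1 member lower, Ndufa4l2 (0.187% of all genes called), and limma on log2 TPM called 0. At an unadjusted p under 0.05 there was 1 member, again Ndufa4l2, against 4.07% of all genes. The members' median log2 fold change was -0.08, with 27 above 0 and 54 below, against a median of 0.02 over all tested genes, 47.4% of which were below 0. Of the 81 members, 77 lay within 0.5 of 0 on the log2 scale, and no member had groups that did not overlap, in either direction (background 0.907% higher and 0.793% lower).

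Complexes I, III, IV and V had medians just below 0 in this comparison, and complex II, with 4 members, one above 0. The median log2 fold change was -0.09 over 37 members of complex I, 0.10 over 4 of complex II, -0.09 over 9 of complex III, -0.10 over 14 of complex IV and -0.06 over 17 of complex V. Within complex I, the 7 core subunits had a median of -0.06 and the other 30 of -0.13, and the largest positive value was that of Ndufb7, a supernumerary subunit (0.13, SE 0.21). Sdhd, an anchor of complex II, had the largest positive value outside complex IV (0.27, SE 0.22), and its CPM was 77.2, 93.2, 89.8 and 85.6 in shLuc and 91.7, 93.8, 84.7 and 146 in shDis3 replicates 1 to 4. Only replicate 4 of shDis3 lay above the control range by more than 1 CPM. Cyc1 had 0.18 (SE 0.20), and Atp5b and Atp5a1 had 0.05 (SE 0.18) and 0.04 (SE 0.22). The lowest values of complexes III and V belonged to small subunits, Uqcrb with -0.31 (SE 0.28) and Atp5mpl with -0.43 (SE 0.31).

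In shExosc10 against shLuc, no member passed the test either. No member was called by edgeR (0 of 81, against 0.00567% of all tested genes), by DESeq2 (0, against 0.0453%) or by limma, and 0 members had an unadjusted p under 0.05 (2.1% of all genes). The median was 0.03, with 49 members above 0 and 32 below, against 0.02 over all genes. All 81 lay within 0.5 of 0. The sign of this median was not fixed. With shLuc replicate 4, shDis3 replicate 4 and shExosc10 replicate 1 left out it was -0.19, with 69 of 80 members below 0 (46.8% of all genes) and 0 called by edgeR (0.0157% of all genes). Of the libraries left out, shLuc replicate 4 had the lowest summed CPM of the members in its group (7416). The highest of its group was shExosc10 replicate 1 (11923). Their removal lowers this comparison, so the -0.19 is no independent support for a shift. On the TPM scale, with limma on log2(TPM + 1), the median was 0.11, with 19 of 81 members below 0 (42.3% of all genes). Ndufa12, a supernumerary subunit of complex I, had 0.41 (SE 0.27) and Cox6b2 0.44 (SE 0.37). Ndufv3, of the NADH-binding module, had -0.30 (SE 0.20), Cox6a1 -0.30 (SE 0.21) and Atp5d -0.28 (SE 0.17). The per-complex medians were 0.05, -0.06, 0.02, 0.01 and 0.03 for complexes I to V, and no member had groups that did not overlap (background 1.02% higher and 1.46% lower).

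The direct comparison of shDis3 with shExosc10 tests whether knockdown of the 2 catalytic subunits left the members at different levels. No member was called by edgeR (0 of 81, against 0.0113% of all genes) or by limma on log2 TPM, and DESeq2 called Ndufa4l2 lower in shDis3 (1 of 81, against 0.448%). At an unadjusted p under 0.05 there were 2 members, Ndufa4l2 and Ndufc1, against 5.98% of all genes. The median was -0.15, with 22 members above 0 and 59 below, against 0.01 over all genes, 48.8% of which were below 0. Medians by complex were -0.16, 0.10, -0.15, -0.15 and -0.09 for complexes I to V, and all 4 members of complex II were at or above 0. Atp5d was the 1 member whose groups did not overlap, against 1.91% of all genes in that direction, and 0 members were lower without overlap (1.8%). Its CPM was 189, 154, 154 and 173 in shDis3 and 153, 133, 140 and 126 with shExosc10. The nearest libraries differed by about 1 CPM, and the fitted difference was 0.28 (SE 0.17, edgeR adjusted p = 0.856). The shDis3 libraries enter this comparison and the first one, so the 2 are not independent, and both comparisons with shLuc share the control libraries.

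Ndufc1, a membrane subunit of complex I with a very short mRNA, had 61.1, 91.0, 68.6 and 26.7 CPM in shLuc replicates 1 to 4. In shDis3 it had 36.6, 62, 24.5 and 43.9 CPM, and in shExosc10 56.6, 93.7, 71.0 and 55.5 CPM. The shLuc library of replicate 4 lay with the low shDis3 libraries, and the groups overlapped. The fitted difference was -0.57 (SE 0.34) in shDis3 against shLuc and -0.73 (SE 0.34, unadjusted p = 0.0483, edgeR adjusted p = 0.824) in shDis3 against shExosc10.

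**Figure D3:**
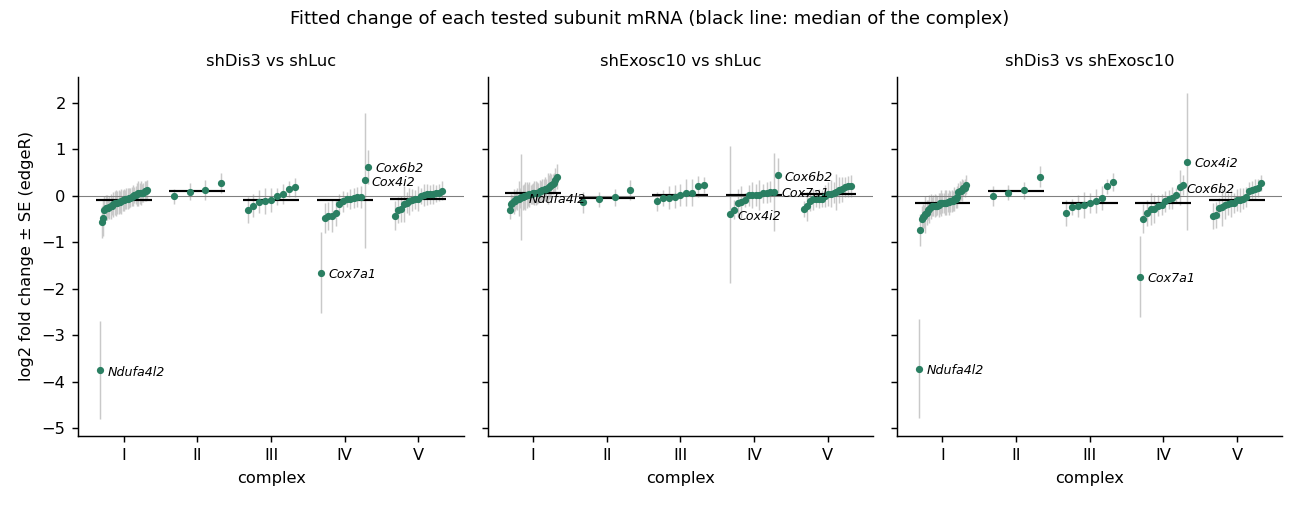
Fitted log2 fold change of each tested member with its standard error (derived from the edgeR test statistic), by complex, in the 3 comparisons. The black line is the median of the complex. Nearly all members lie within 0.5 of 0, and Ndufa4l2 and Cox7a1 lie below the rest in both comparisons that involve shDis3.

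Ndufa4l2 was the member that varied most, with an SD of log2 CPM of 2.39 over the 12 libraries, against a median of 0.32 over the members. In shLuc it had 9.87, 6.81, 18.3 and 0.335 CPM in replicates 1 to 4. In shDis3 it had 0.902, 0.299, 0.376 and 0.999 CPM, and in shExosc10 0.189, 8.38, 16.1 and 9.88 CPM. It was thus low in all 4 shDis3 libraries, in 1 shLuc library and in 1 shExosc10 library, so that the groups overlapped. The fitted log2 fold change was -3.75 (SE 1.06, unadjusted p = 0.00317, edgeR adjusted p = 0.933) in shDis3 against shLuc and -3.72 (SE 1.06, edgeR adjusted p = 0.666) in shDis3 against shExosc10. In shExosc10 against shLuc it was -0.03 (SE 0.92), and its sign turned without shLuc replicate 1 (0.03), shLuc replicate 3 (0.64) or shExosc10 replicate 1 (0.38).

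Ndufa4l2 passed the threshold under other settings. DESeq2 gave -3.82 (adjusted p = 0.0355) in shDis3 against shLuc and -3.80 (adjusted p = 0.018) in shDis3 against shExosc10. Leaving out shLuc replicate 4, the control library in which it was low, gave -4.15 (edgeR adjusted p = 0.039) in shDis3 against shLuc. There 0.738% of all genes were called, and the choice of library took away the overlap of these groups. With no filter on low counts it was called in both comparisons with shDis3, in which 0.297% and 0.433% of all genes were called. The fitted values there (-3.73 and -3.71) were close to those of the main fit, and the cause of the lower adjusted p was not tested. In a fit with a term for the library cluster the value was -0.60 (edgeR adjusted p = 0.996) and -0.51 (edgeR adjusted p = 0.918). The groups were spread unevenly over the clusters: 3 of 4 shDis3 libraries lay in a cluster with 1 shLuc and 1 shExosc10 library, and 1 lay in a cluster with 2 shLuc and 3 shExosc10 libraries. The shRNA and the cluster can be told apart only in part. Bnip3, another hypoxia-induced gene that encodes a mitochondrial outer membrane protein and is not a member, had 107, 103, 126 and 14.1 CPM in shLuc. It had 13, 13.4, 18 and 22.7 CPM in shDis3 and 17.6, 80.7, 115 and 101 CPM in shExosc10. Both genes were low in shLuc replicate 4, in all 4 shDis3 libraries and in shExosc10 replicate 1.

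Within shLuc and within shExosc10, marker sums of several other cell types were highest in the replicate where Ndufa4l2 was lowest. The erythroid sum was lowest there. All 8 megakaryocyte markers were detected and summed to 68.7 to 395.0 CPM in shLuc, 282.3 to 348.1 in shDis3 and 119.8 to 304.9 in shExosc10, with the highest values of shLuc and shExosc10 in replicates 4 and 1. All 8 granulocyte markers were detected and summed to 1074.5 to 4221.7, 2080.4 to 4842.3 and 1311.2 to 2039.3 CPM, with the same replicates highest. The 10 erythroid markers summed to 1166.5 to 2802.6, 1279.2 to 2095.0 and 1631.2 to 3065.3 CPM, with those replicates lowest. Singly, Klf1, Kit, Tfrc and Epor were lowest there too, but Gata1 was not. Gata1 had 99.1 CPM in shLuc replicate 4, against 96.5 in replicate 1, and 107 in shExosc10 replicate 1, the highest of its group. Of 6 mast cell and basophil markers, 5 passed the filter and summed to 10.6 to 98.7, 22.2 to 83.0 and 9.0 to 105.6 CPM, and Fcer1a was at 0 in all libraries. The sums were 3.3 to 34.4, 16 to 31.1 and 7.8 to 30.4 CPM over 2 of 5 endothelial markers and 6.6 to 25.6, 14 to 25.4 and 6.0 to 20.1 CPM over 4 of 8 macrophage markers. In these 3 lists, shLuc replicate 4 and shExosc10 replicate 1 were again the highest of their groups. For 3 of 6 lymphoid markers the sums were 0.1 to 3.7, 0.2 to 4.4 and 0.7 to 2.0 CPM, and for 3 of 8 hepatocyte markers 11.8 to 30.7, 9.6 to 25.1 and 13.5 to 21.8 CPM. The part of these cell types in the values of Ndufa4l2 was not tested.

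**Figure D4:**
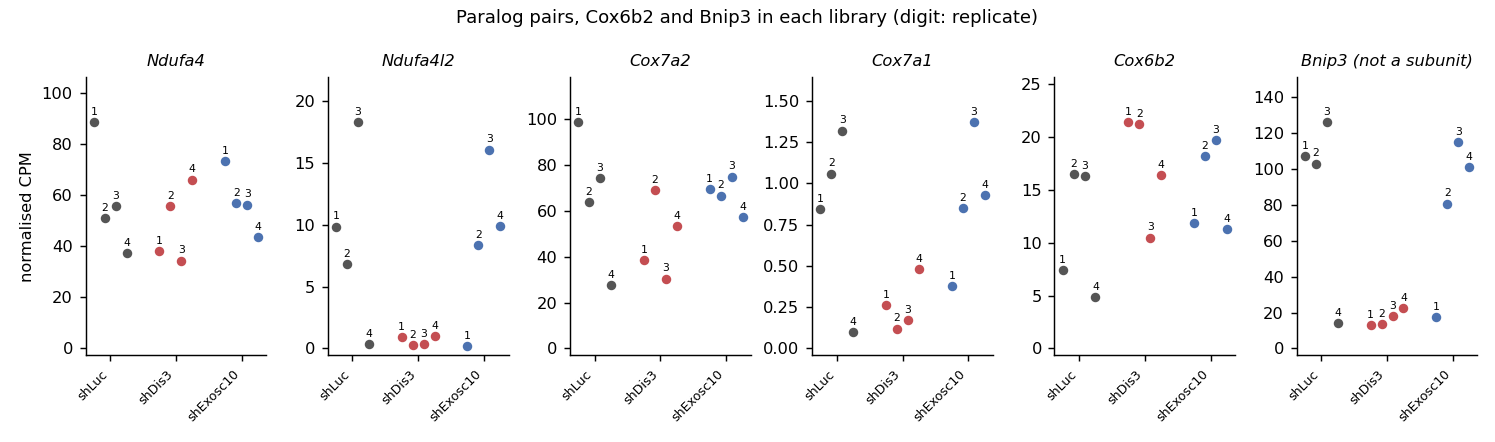
Normalised CPM of the paralog pairs Ndufa4 and Ndufa4l2, Cox7a2 and Cox7a1, of Cox6b2 and of Bnip3 in each library, by group, with the replicate number over each point; each panel has its own axis. Ndufa4l2, Cox7a1 and Bnip3 are low in shLuc replicate 4, in all shDis3 libraries and in shExosc10 replicate 1, while Ndufa4 has 34.4 to 88.5 CPM in all libraries.

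Ndufa4, the widely used paralog, varied far less between libraries. It had 88.5, 51.1, 55.6 and 37.3 CPM in shLuc, 38.1, 55.8, 34.4 and 66.1 in shDis3 and 73.2, 57.0, 56.3 and 43.6 in shExosc10. Its fitted log2 fold change was -0.26 (SE 0.27) in shDis3 against shLuc. On the TPM scale its mean was 129 against 8.44 for Ndufa4l2.

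Cox7a1, the muscle form of subunit 7a, was near the lower limit of detection with 198 counts over all libraries. It had 0.845, 1.06, 1.32 and 0.101 CPM in shLuc, 0.263, 0.120, 0.173 and 0.481 in shDis3 and 0.379, 0.850, 1.37 and 0.930 with shExosc10. The libraries low for Ndufa4l2 were the 6 lowest for Cox7a1 too. The fitted log2 fold change was -1.65 (SE 0.87, edgeR adjusted p = 1.0) in shDis3 against shLuc and -1.74 (SE 0.87, edgeR adjusted p = 0.824) against shExosc10. Cox7a2 had 98.7, 63.8, 74.3 and 27.8 CPM in shLuc, 38.6, 69.2, 30.5 and 53.4 in shDis3 and 69.5, 66.7, 75 and 57.5 in shExosc10, with a fitted value of -0.47 (SE 0.32) in shDis3 against shLuc. Here shDis3 replicate 2 was among the higher libraries, unlike for Cox7a1.

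Cox4i2, a form of subunit 4 known from lung and from low oxygen, had 222 counts over all libraries and was listed at 0 in shLuc replicates 2 and 3. The other shLuc libraries had 0.158 and 2.41 CPM in replicates 1 and 4. It had 0.0376, 0.239, 1.27 and 1.70 CPM in shDis3 and 1.02, 0.202, 0.534 and 0.196 CPM in shExosc10. The highest library was a control, and SEs of 1.46 and 1.47 on the log2 scale leave the differences between groups undetermined at this depth. Its 4 highest libraries were shLuc replicate 4, shDis3 replicates 3 and 4 and shExosc10 replicate 1, which share a cluster, but the fifth library of that cluster, shDis3 replicate 1, had the lowest value above 0.

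Cox6b2, known as a testis form of subunit 6b, was an isoform with a sizeable level, 41.2 TPM on average beside 165 TPM for Cox6b1. It had 12.17, 52.31, 32.94 and 18.64 TPM in shLuc, 72.46, 56.72, 42.09 and 39.18 in shDis3 and 29.11, 48.70, 57.00 and 33.51 with shExosc10. On this scale the shDis3 libraries lay in the upper part of the control range or above it. As CPM, shDis3 replicate 3 had 10.5, below shLuc replicates 2 and 3 with 16.5 and 16.3. The fitted log2 fold change was 0.62 (SE 0.37) in shDis3 against shLuc and 0.44 (SE 0.37) in shExosc10 against shLuc, neither called by edgeR (adjusted p = 1.0 for both).

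Most other members varied less, and the SD of log2 CPM over the 12 libraries was 0.66 for Ndufb2, 0.65 for Cox6b2 and 0.62 for Ndufc1. This SD had a median of 0.32 over the members, against 0.42 over the tested protein-coding genes, and was lowest for Cox5a and Sdhc with 0.17. Cox5a had 54.4, 45.4, 54.5 and 43.7 CPM in shLuc, 46.1, 51.2, 38.1 and 51.6 in shDis3 and 54.3, 42.8, 44.9 and 44.0 with shExosc10. The 3 groups overlapped over nearly their whole ranges.

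Part of the variation between libraries went with transcript length. Among the 14 members with an effective length under 300 bases, such as Cox6c, Atp5mpl, Uqcrb and Ndufc1, the median log2 CPM relative to the 12-library mean was 0.30, 0.03, 0.36 and -0.67 in shLuc replicates 1 to 4. It was -0.33, 0.19, -0.74 and 0.19 in shDis3 and 0.24, 0.17, 0.24 and -0.10 in shExosc10. So shLuc replicate 4 and shDis3 replicates 1 and 3 were low for short subunit mRNAs. The 30 members over 600 bases, which include all 4 of complex II, were less spread, from -0.36 to 0.35. Their lowest values were also in shLuc replicate 4 (-0.35) and shDis3 replicate 3 (-0.36), and members of 300 to 600 bases had -0.50 and -0.53 there.

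The same libraries were low over all short genes. The 137 tested protein-coding genes under 300 bases had medians of 0.42, -0.03, 0.43 and -0.71 in shLuc and of -0.34, 0.14, -0.68 and 0.27 in shDis3 replicates 1 to 4. The 13285 protein-coding genes over 600 bases were not low there, with 0.03 in shLuc replicate 4 and 0.02 in shDis3 replicate 3. This class is not matched in length to the members over 600 bases. The longest member had 2207.9 bases, close to the median of 2186.9 bases over all tested protein-coding genes. The difference between transcript length and effective length, which reflects the mean fragment length that RSEM used for a library, was 235.7 in shLuc replicate 4, 235.9 in shDis3 replicate 1 and 237.0 in shDis3 replicate 3, within the range of the other libraries (225.6 to 244.8). In shDis3 against shLuc, the short members had a median log2 fold change of -0.22 (13 of 14 below 0), and the short protein-coding genes -0.21 (112 of 137). Members of 300 to 600 bases had -0.09 (25 of 37 below 0) and longer ones 0.00 (16 of 30 below 0). Across the 81 members, effective length and fold change had a Spearman rho of 0.51 in this comparison and a Pearson r, with length as log2, of 0.25. Over the 13931 tested protein-coding genes these were -0.01 and 0.01. Among the members, rho and r were 0.01 and 0.03 in shExosc10 against shLuc and 0.32 and 0.24 in shDis3 against shExosc10. These values are a description, since the genes share libraries and are not independent.

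**Figure D5:**
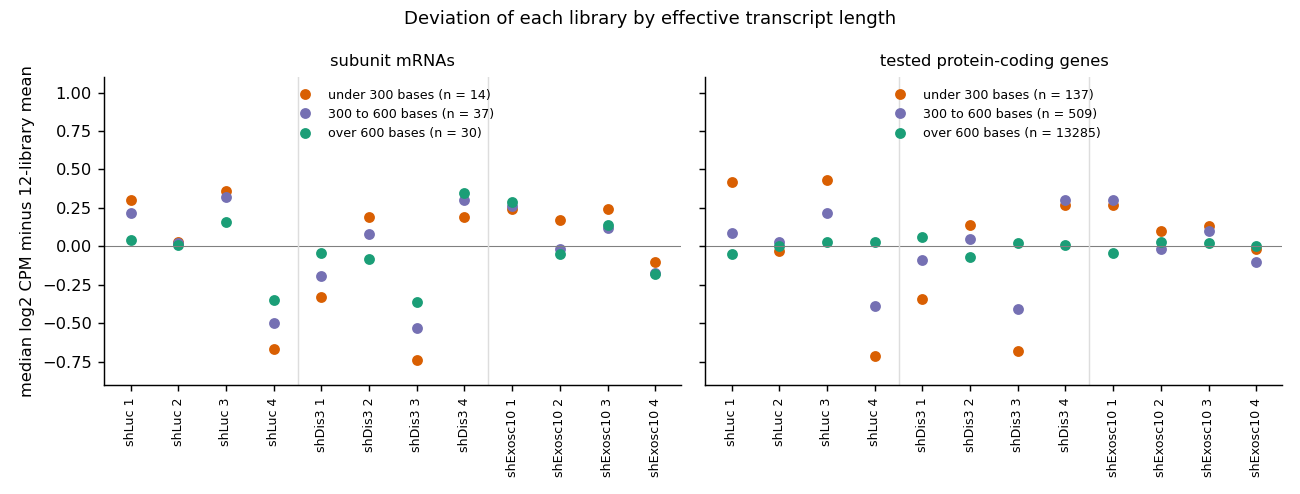
Median log2 CPM of each library relative to the mean of all 12, for genes in 3 classes of effective length, for the tested members (left) and the tested protein-coding genes (right). Short transcripts are lowest in shLuc replicate 4 and shDis3 replicate 3 in both panels. The class of 300 to 600 bases is lowest in these libraries in both panels too, and the class over 600 bases in the left panel only. The classes over 600 bases are not matched in length between the panels.

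The sign of the small shift in shDis3 depended on the scale. On the TPM scale, with limma on log2(TPM + 1), the members' median was 0.17 in shDis3 against shLuc, with 16 of 81 below 0 (28.2% of all genes) and a median of 0.11 over all genes, in place of -0.08 from counts. With shLuc replicate 4, shDis3 replicate 4 and shExosc10 replicate 1 left out, the median was -0.39, and 76 of 80 members were below 0 (47.9% of all genes). Of the 80, 31 had an unadjusted p under 0.05 (15.3% of all genes), and 1, Ndufa4l2, was called by edgeR (4.04% of all genes). In shDis3 against shExosc10 without these libraries, the median was -0.23, with 61 of 80 members below 0 (50.9% of all genes). Ndufa4l2 was again the 1 member called (3.23% of all genes). The libraries left out include those outside shDis3 in which Ndufa4l2 was low, so its calls here are no independent support. They also include the libraries with the lowest and the highest summed CPM of the members, shLuc replicate 4 (7416) and shDis3 replicate 4 (12221). Their removal lowers the members in shDis3 against shLuc. The median of -0.39 and the 31 members are therefore no independent support for a shift. On the TPM scale, shDis3 against shExosc10 had a median of 0.02 (0.07 over all genes), with 37 of 81 members below 0 (36.6% of all genes). For shDis3 against shLuc, the fit with a term for the library cluster gave a median of 0.04 (0.05 over all genes). Without shDis3 replicate 3 alone it was 0.05 (0.08 over all genes). No direction for the members as a whole can therefore be given in shDis3.

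Other genes of mitochondrial energy metabolism were described by lists of textbook members. In shDis3 against shLuc and in shExosc10 against shLuc, edgeR called 0 of 48 assembly factors of the complexes (medians 0.09 and 0.13), 0 of 13 mitochondrially encoded mRNAs (-0.10 and 0.11) and 0 of 36 mitochondrial ribosome genes (0.09 and 0.12). It called 0 of 17 regulators of mitochondrial gene expression (-0.01 and -0.06), 0 of 18 citric acid cycle genes (0.03 and 0.02) and 0 of 19 electron carriers and ADP exchangers (0.14 and 0.11). At an unadjusted p under 0.05 these lists held 3, 0, 1, 1, 0 and 1 genes in the first comparison, against 4.07% of all genes. The list of glycolysis and hypoxia genes, which holds Bnip3, had in the first comparison 0 of 22 called, 16 at an unadjusted p under 0.05 (4.07% of all genes), 21 below 0 (47.4% of all genes) and a median of -0.63. In shExosc10 against shLuc its median was -0.17, with 0 called, 0 at an unadjusted p under 0.05 (2.1% of all genes) and 21 below 0 (47.8% of all genes). In shDis3 against shExosc10 it was -0.46, with 0 called, 9 at an unadjusted p under 0.05 (5.98% of all genes) and 21 below 0 (48.8% of all genes). The 13 mitochondrially encoded mRNAs together summed to 12797 to 36466 TPM per library, lowest in shLuc replicate 1 and highest in shLuc replicate 2. As CPM they summed to 14208.9 in shDis3 replicate 3, the lowest, and to 24808.0 in shExosc10 replicate 2, the highest.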

How the data were processed

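RNA was measured in 12 libraries of sorted fetal liver erythroid cells, 4 for each shRNA, and group and replicate number came from the sample titles. Trizol was used for extraction and a stranded pico-input kit for total RNA for the libraries, per the labels' protocols. STAR 2.5.3a, RSEM 1.3.0 and the build GRCm38 (mm10) are listed, without roles, in the submitters' processing notes. No annotation release, strand setting or filter is stated there, so overlapping and antisense genes are uncertain. Per the file headers, the authors deposited for each gene an RSEM expected count, an estimated number of reads that splits ambiguous reads between genes. The deposited tables also hold TPM, FPKM (not used here), length and effective length. TPM has a fixed total per library and was used to compare levels between genes.

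Identifiers were matched to GENCODE M21 (55144 of 55385, of which 54487 with their version, including all 86 members). Expected counts were rounded and tested on all 12 libraries with edgeR 4.0.16 (R 4.3.3), quasi-likelihood method, TMM factors, default low-count filter by group, and a model of group alone. The filter kept 17650 genes, with a biological coefficient of variation of 60%. Benjamini-Hochberg adjustment ran over the whole table, and the threshold was 0.05. The CPM given are normalised by TMM. The SEs given are approximate: each is the absolute log2 fold change divided by the square root of the F statistic of the edgeR test. Alternatives were DESeq2 1.42.0, limma 3.58.1 on log2(TPM + 1) and log2(TPM + 0.1), other size factors, no filter, a replicate block, left-out libraries, a factor for the cluster of libraries (average linkage over tested genes that are not members) and only the groups compared. Counting intervals are not given, since the reads carry no molecular identifiers.

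The members and gene lists were chosen with earlier results of these data known. Genes named were those called in any comparison, the most and least abundant and the most changed of each complex, all of complex II, paralog sets and core subunits. Others are named where a count or a library pattern rests on them, chosen after their values were seen. Coding sequences came from the GENCODE M21 transcripts and were aligned with Biopython. Planned descriptions of promoter motifs and of proteins were not made.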

Additional observations from a re-analysis of the deposited data

Results flagged for a closer look

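The CPM of the tested members among the 52 chosen by the naming rule, and the summed TPM of the 5 complexes, were searched in each group of 4 libraries for a library far from the other 3. In 4 of 162 such groups the gap to the nearest library, relative to the group's whole range, was above the 95% critical value of Dixon's test, and chance gives about 1 in 20. Sdhd, a membrane anchor of complex II, had 146 CPM in shDis3 replicate 4, against 84.7 to 93.8 CPM in the other shDis3 libraries. Uqcrfs1, the Rieske protein of complex III, had 178 CPM in the same library, against 92.9 to 106 CPM. Cox4i2 had 2.41 CPM in shLuc replicate 4, against 0 to 0.158 CPM in the other control libraries. Atp5d, the delta subunit of the ATP synthase, had 221 CPM in shLuc replicate 3, against 149 to 150 CPM in the others.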

How the results depend on the processing

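The count of members called was 0 in each comparison, and 23 alternatives were run for each. It was 1 in shDis3 against shLuc with DESeq2 (0.187% of all genes called) and with no filter on low counts (0.297%). The count was also 1 with shLuc replicate 4, shDis3 replicate 4 and shExosc10 replicate 1 left out together (4.04%). Leaving out single libraries gave 0 to 1, with 1 only without shLuc replicate 4 (0.738% of all genes). It was 1 in shDis3 against shExosc10 with DESeq2 (0.448% of all genes), with no filter (0.433%) and without those 3 libraries (3.23%). The gene was Ndufa4l2 each time, with -4.43 (edgeR adjusted p = 0.00026) and -4.42 (0.000441) without the 3 libraries. Of these 3, shLuc replicate 4 and shExosc10 replicate 1 were those outside shDis3 in which Ndufa4l2 was low (0.335 and 0.189 CPM). Leaving them out took away the overlap of the groups, so these calls are no independent support. With no filter it had edgeR adjusted p = 2.84e-11 and 6.34e-11, at fitted values (-3.73 and -3.71) close to those of the main fit. The cause was not tested. The sign of the members' medians was not fixed. Leaving out single libraries gave -0.23 to 0.05, -0.12 to 0.14 and -0.31 to -0.02 in shDis3 against shLuc, shExosc10 against shLuc and shDis3 against shExosc10. From -0.08 in the first, the median was 0.0 without shLuc replicate 3 (all genes 0.05). Its sign turned without shDis3 replicate 3 (0.05, all genes 0.08) and with the cluster term (0.04, all genes 0.05). The sign also turned with limma on log2(TPM + 1) (0.17, all genes 0.11). From 0.03 in the second, it turned without shLuc replicate 4 (-0.12, all genes -0.01) and without shExosc10 replicate 1 (-0.04, all genes 0.04). It turned as well without the 3 libraries named above (-0.19, all genes 0.02). From -0.15 in the third, it turned with limma on log2(TPM + 1) (0.02, all genes 0.07). Without shLuc replicate 4 and shDis3 replicates 1 and 3, a choice made after the length pattern was seen, the medians were -0.04, -0.12 and 0.05.

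With the replicate number as a block, 0 members were called in each comparison, and the medians were -0.07, 0.04 and -0.14. The numbers were not taken to pair the samples, since the correlation of same-numbered libraries ranged from -0.47 to 0.773 and not every library correlated best with its own number.

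Depth limits Cox4i2, Cox7a1, Cox6a2 and Cox7b2, which had 222, 198, 18 and 9 counts over 12 libraries. With a biological coefficient of variation of 60% the log2 fold changes of the other members named had SEs of 0.16 to 0.39, apart from Ndufa4l2.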

Other observations

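Gene models outside the protein-coding class also carried subunit sequence. Ndufb4c, annotated as a processed pseudogene on chromosome 15 (minus strand, 73809507 to 73809896), is 390 bases long and identical over its whole length to the coding sequence of Ndufb4, a membrane subunit of complex I on chromosome 16 (minus strand, 37647170 to 37654453). It had 339.91 to 605.57 TPM per library, against a mean of 78.4 TPM for Ndufb4. Much of this gap goes with effective length, 158.0 bases against 727.9 for Ndufb4. In counts over all libraries the 2 were closer, with 27391.3 for Ndufb4c and 21723.73 for Ndufb4. Reads from the coding part of Ndufb4 cannot be told apart from those of the copy, so the level of Ndufb4 rests on its untranslated parts and on how RSEM divided the rest. The first 150 bases of the shared sequence, all found in both genes, are shown in small letters because any read within them is ambiguous.
Ndufb4: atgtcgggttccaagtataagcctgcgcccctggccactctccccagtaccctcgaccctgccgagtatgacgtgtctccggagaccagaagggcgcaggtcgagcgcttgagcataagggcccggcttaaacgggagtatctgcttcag

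Ndufb1-ps, whose symbol names a complex I subunit, is annotated as a long non-coding RNA on chromosome 12 (101968090 to 101977068) and was left out by the rule. It had 57.17 to 161.06 TPM, within the range of the other complex I genes. Its CPM was 79.4 ± 40.0 in the controls, 51.4 ± 28.7 with shDis3 and 77.9 ± 13.8 with shExosc10 (SD, n = 4). The groups overlapped, with ranges of 26.1 to 123, 25.6 to 89.7 and 65.4 to 93.1 CPM. In all, 12 symbols fitted the rule but were not protein-coding. Of the members' counts in single libraries, 11.2% were not whole.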
